A study of Mus musculus with 6 samples.

Results

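The transcripts described here encode the Sp1, beta-TrCP and PPAR gamma axis: the transcription factors Sp1 and Sp3, the F-box proteins Btrc, Fbxw11 and Skp2, beta-catenin (Ctnnb1), the nuclear receptor Pparg and the zinc finger factor Klf6. All probe sets annotated to exactly 1 symbol among these 8 genes were taken, which gave 29 of the 45037 probe sets and 8 of the 18193 genes measured on the array. The study asked how OSU-CG5 affects the prostate of TRAMP mice, a strain in which a probasin promoter drives SV40 T antigens in prostate epithelium. OSU-CG5 is known here only by its code name and belongs to the compounds called energy restriction-mimetic agents. All animals were intact males, F1 offspring of C57BL/6 TRAMP and FvB parents, randomised to vehicle or to OSU-CG5 at 100 mg/kg/day by oral gavage, and both groups carried the transgene. Dosing ran for 4 weeks, from 6 to 10 weeks of age. Microdissected dorsal and lateral lobes were collected 2 to 4 h after the last dose from 3 mice per group, with a single Affymetrix array for each animal. No mice without the transgene were analysed here.

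Sp1 and Sp3 are zinc finger factors that bind GC-rich elements in many promoters. Btrc and Fbxw11 encode the paralogous beta-TrCP proteins, substrate receptors of SCF ubiquitin ligases that bind phosphorylated targets such as beta-catenin and mark them for the proteasome. Skp2 is the receptor of another SCF ligase, known for degrading the cell cycle inhibitor p27, and Ctnnb1 encodes beta-catenin, which acts at cell junctions and as the transcriptional partner of TCF/LEF factors. Pparg encodes the receptor that heads adipocyte differentiation and is also made in macrophages and some epithelia. Klf6 is a relative of the Sp factors described as a tumour suppressor in prostate. Earlier work with energy restriction-mimetic agents in cancer cells described loss of Sp1 protein through beta-TrCP and raised KLF6 expression. The arrays measured RNA, so protein levels and degradation were not observed here.

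The promoters of Sp1, Skp2, Ctnnb1 and Klf6 are shown because Skp2, Ctnnb1 and Klf6 gave the most concordant probe sets in the comparison below and Sp1 binds the element marked in them. Each line gives the 250 bases before a RefSeq transcription start on GRCm38.p6, 5′ to 3′ on the gene's strand, with capitals for the core of a GC box, GGGCGG on either strand. Coordinates are chr15:102406066-102406315 (plus strand) for Sp1, chr15:9140455-9140704 (minus strand) for Skp2, chr9:120933150-120933399 (plus strand) for Ctnnb1 and chr13:5861239-5861488 (plus strand) for Klf6.
Sp1: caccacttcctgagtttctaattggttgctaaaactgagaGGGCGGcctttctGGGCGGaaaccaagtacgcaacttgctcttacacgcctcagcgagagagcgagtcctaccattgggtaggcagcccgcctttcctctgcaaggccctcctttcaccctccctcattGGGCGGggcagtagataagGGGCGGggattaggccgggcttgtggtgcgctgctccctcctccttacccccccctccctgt
Skp2: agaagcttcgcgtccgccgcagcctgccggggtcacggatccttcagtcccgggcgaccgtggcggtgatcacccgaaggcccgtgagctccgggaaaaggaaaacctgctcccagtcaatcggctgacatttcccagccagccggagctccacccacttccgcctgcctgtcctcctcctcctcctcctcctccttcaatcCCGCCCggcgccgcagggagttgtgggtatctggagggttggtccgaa
Ctnnb1: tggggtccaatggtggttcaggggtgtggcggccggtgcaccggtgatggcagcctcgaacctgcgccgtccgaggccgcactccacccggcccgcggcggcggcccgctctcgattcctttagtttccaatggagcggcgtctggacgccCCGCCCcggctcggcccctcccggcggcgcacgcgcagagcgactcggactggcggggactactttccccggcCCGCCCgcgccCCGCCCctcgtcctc
Klf6: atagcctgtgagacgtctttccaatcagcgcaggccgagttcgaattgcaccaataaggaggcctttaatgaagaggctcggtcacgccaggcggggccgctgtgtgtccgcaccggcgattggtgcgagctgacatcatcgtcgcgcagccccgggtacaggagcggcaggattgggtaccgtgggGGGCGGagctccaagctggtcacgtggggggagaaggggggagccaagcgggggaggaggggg
The Sp1 window held 4 GC boxes, that of Ctnnb1 3, and those of Skp2 and Klf6 1 each. Skp2 had another start in the table (the 300-base window chr15:9155376-9155675, minus strand), which held 0 GC boxes with 43.7% G and C. The RefSeq table had 12 starts for 7 of the 8 genes, and Btrc was not among them. Counting 300 bases around each start, from 250 before to 50 after it, 9 of the 12 held GGGCGG, against 35.7% of 32851 promoters of that length. G and C made up 40.3% to 80.3% of these 12 windows, and base composition was not matched. CCAAT on either strand was in 7 of the 12, against 37.4% of all. TCAAAG, a core of TCF/LEF elements, was in 1, that of Klf6, against 16%. In the Sp1 window 1 CCAAT match shares bases with a GC box, and the windows of the 2 Ctnnb1 starts overlap. A match describes the letters and is not evidence of binding.

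A vehicle array stood apart. Vehicle replicate 2 correlated with the others at 0.966 to 0.981 over all probe sets (Pearson), and the remaining pairs lay between 0.987 and 0.995. Seminal vesicle transcripts (5 measured of 6 listed) averaged 8.07 on that array and 3.72 to 5.26 on the other 5, on the log2 scale. Luminal markers were present on every array, with the secretory gene Pbsn between 13.28 and 13.91. The values without vehicle replicate 2 are therefore given beside each gene of the axis and plotted for all 29 probe sets. For related genes they are given for some only. All signals below are deposited log2 values. They come from probes of unknown efficiency, so a probe set is compared between arrays. Brightness ranks and percentiles place a probe set on the array and give no order of expression between genes.

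Skp2 read higher with OSU-CG5 in all 6 of its probe sets and Ctnnb1 in all 3, while Klf6 read lower in all 5 and Pparg in its only 1. Sp1, Btrc and Fbxw11 had probe sets in both directions. Sp3 differed by less than its spread, and so did the Klf6 probe set 1418280_at (-0.06, SE 0.14). No member passed the adjusted threshold. In limma, with p-values adjusted by Benjamini-Hochberg across the 45037 probe sets, 0 of 29 fell under 0.05, and 0.142 was the lowest value. The background in that fit was also 0% (0 of 45037). With limma's array quality weights 5 members passed (3 of Skp2, 1 of Btrc and 1 of Ctnnb1), against 1.83% of all probe sets. Without vehicle replicate 3 it was 3 members, against 1.97%. Without any other array it was 0, and without vehicle replicate 2 that 0 stood against 0.888%. At an unadjusted limma p under 0.05 there were 14 of 29 (48.3%), 10 higher and 4 lower, against 16.4% of all probe sets (9.63% higher and 6.8% lower). The 3 OSU-CG5 arrays lay entirely above or below the 3 vehicle arrays for 18 of 29 (62.1%), against 23.6% of all. Probe sets of 1 gene share their transcript, and Skp2 alone supplied 5 of the 14, so these counts are not 29 separate observations. Differences ran from -0.49 to 0.91 with a median of 0.08, and the median over all probe sets was -0.06. At least a 1.5-fold difference held for 6 members, against 6.38% of all probe sets.

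**Figure D1:**
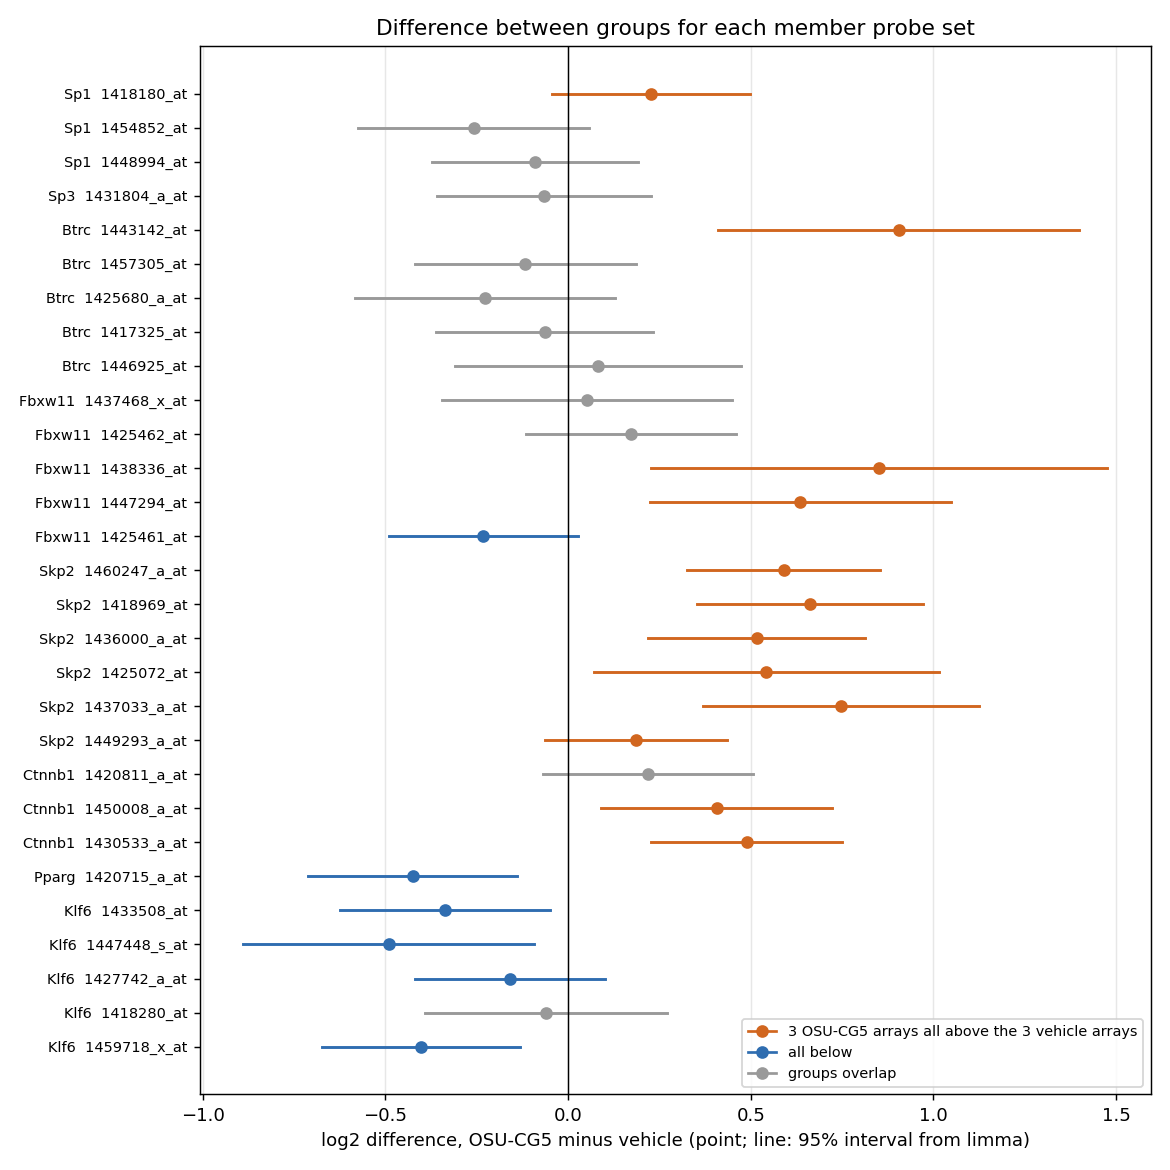
Log2 difference, OSU-CG5 minus vehicle (x axis), for each of the 29 probe sets (rows, by gene and falling signal), with limma's 95% interval. The intervals of 5 of 6 Skp2 probe sets lie above 0, those of 3 of 5 Klf6 probe sets and of Pparg lie below 0, and the probe sets of Btrc, Fbxw11 and Sp1 fall on both sides.

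Sp1 was measured by 3 probe sets that did not share a direction. The brightest, 1418180_at, read 10.83, 10.85 and 10.75 in vehicle replicates 1 to 3 and 10.90, 11.15 and 11.06 with OSU-CG5. All treated arrays lay above all vehicle arrays, but the gap was small, a log2 difference (OSU-CG5 minus vehicle) of 0.23 (SE, limma's moderated standard error, 0.12; limma unadjusted p = 0.0888, adjusted p = 0.372). Its 95% interval ran from -0.04 to 0.50. Probe set 1454852_at read 9.95, 10.15 and 9.97 in vehicle and 9.98, 9.59 and 9.73 with OSU-CG5. Here the groups overlapped through OSU-CG5 replicate 1, and the difference was -0.26 (SE 0.14; limma adjusted p = 0.383). The third, 1448994_at, derives from the same source sequence as the brightest and differed by -0.09 (SE 0.12). Without vehicle replicate 2 the 3 Sp1 differences were 0.25, -0.19 and -0.032, in that order. Sp1 RNA thus showed no difference that its own probe sets shared, and their 95% intervals together ran from -0.57 to 0.50. Sp3, which binds the same elements as Sp1, had 1 probe set of low signal, 1431804_a_at. It read 4.51, 4.70 and 4.82 in vehicle and 4.54, 4.57 and 4.72 with OSU-CG5, so the groups overlapped throughout. The difference was -0.07 (95% interval -0.36 to 0.23; limma adjusted p = 0.817), and -0.05 without vehicle replicate 2.

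Btrc, the beta-TrCP1 gene, had 5 probe sets, of which 1 stood apart. Probe set 1443142_at read 5.70, 5.16 and 6.03 in vehicle and 6.43, 6.73 and 6.45 with OSU-CG5. Every treated array lay above every vehicle array, with vehicle replicate 2 lowest, and the difference of 0.91 (SE 0.22), 1.87-fold, was the largest of all 29 members. It had a limma unadjusted p of 0.00273 and an adjusted p of 0.159, and without vehicle replicate 2 the difference was 0.67 (SE 0.15; adjusted p = 0.0805). Without vehicle replicate 3, the highest vehicle array, it was 1.11 (limma adjusted p = 0.0425). The limma adjusted p was 0.294 without vehicle replicate 1 and 0.323 to 0.457 with an OSU-CG5 array left out. The other 4 Btrc probe sets did not show it. Probe set 1457305_at read 5.52, 5.58 and 5.52 in vehicle and 5.59, 5.20 and 5.48 with OSU-CG5, a difference of -0.12 (SE 0.13). Probe set 1425680_a_at differed by -0.23 (SE 0.16), 1417325_at by -0.06 (SE 0.13) and 1446925_at by 0.08 (SE 0.17), and the groups overlapped in each. Without vehicle replicate 2 these 4 differences were -0.10, -0.16, 0.013 and 0.015, so that of 1417325_at changed sign. All 5 had low to middling signal, with means of 4.12 to 6.08 against a median of 5.35 over all probe sets. Which part of the Btrc transcript each probe set reads was not tested.

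Fbxw11, the beta-TrCP2 gene, also had 5 probe sets, 4 above 0 and 1 below. The groups stood apart in 3 of them, 2 higher (11.7% of all probe sets) and 1 lower (11.9%) with OSU-CG5. The brightest, 1437468_x_at, read 11.89, 12.43 and 11.81 in vehicle and 12.03, 12.14 and 12.12 with OSU-CG5. Vehicle replicate 2 was the highest array there, the groups overlapped, and the difference was 0.05 (SE 0.17), or 0.25 (SE 0.12) without that array. Its identifier is of the kind whose probes can bind related transcripts. Probe set 1425462_at read 9.55, 9.76 and 9.62 in vehicle and 9.68, 9.83 and 9.95 with OSU-CG5, a difference of 0.17 (SE 0.13) with overlapping groups, or 0.23 without vehicle replicate 2. The groups did not overlap at 1438336_at, which read 6.10, 5.01 and 6.02 in vehicle and 6.71, 6.61 and 6.38 with OSU-CG5. Its difference was 0.85 (SE 0.27; limma unadjusted p = 0.0133, adjusted p = 0.212), and 0.50 (SE 0.14) without vehicle replicate 2, the lowest array. Probe set 1447294_at read 5.51, 5.08 and 5.63 in vehicle and 6.30, 5.94 and 5.88 with OSU-CG5. Here too the groups stood apart with vehicle replicate 2 lowest, and the difference was 0.64 (SE 0.18; limma adjusted p = 0.185), or 0.47 without it. The faintest, 1425461_at, lay at 3.37 to 3.57 in vehicle and 3.21 to 3.29 with OSU-CG5, so its groups did not overlap either. The difference was -0.23 (SE 0.11), or -0.18 without vehicle replicate 2. Probe set 1425461_at shares its source sequence with 1425462_at, whose difference was 0.17.

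Skp2 gave the most uniform result of the 8 genes. Its brightest probe set, 1460247_a_at, read 7.43, 7.34 and 7.53 in vehicle and 7.99, 7.98 and 8.11 with OSU-CG5. The 3 treated arrays were nearly equal and all above vehicle, by 0.59 (SE 0.11; 95% interval 0.33 to 0.85), or 1.51-fold. The limma unadjusted p was 7.8e-04 and the adjusted p 0.142, the smallest among the members. Probe set 1418969_at read 7.15, 7.22 and 7.52 in vehicle and 7.94, 7.88 and 8.05 with OSU-CG5, a difference of 0.66 (SE 0.14). Probe set 1437033_a_at read 6.72, 6.68 and 7.25 in vehicle and 7.57, 7.65 and 7.67 with OSU-CG5, a difference of 0.75 (SE 0.17). In both, vehicle replicate 3 lay nearest to the treated arrays, and the groups did not overlap. Probe set 1436000_a_at read 7.36, 7.10 and 7.24 in vehicle and 7.68, 7.66 and 7.92 with OSU-CG5 (difference 0.52, SE 0.13). Probe set 1425072_at read 7.27, 6.74 and 7.56 in vehicle and 7.90, 7.68 and 7.61 with OSU-CG5 (difference 0.54, SE 0.21). Without vehicle replicate 2 that difference was 0.32 (SE 0.15), and its limma unadjusted p went from 0.0291 to 0.0599. These 5 probe sets spanned 1.43-fold to 1.68-fold with limma adjusted p between 0.142 and 0.258. The sixth, 1449293_a_at, lay near the bottom of the scale, at 3.38 to 3.45 in vehicle and 3.55 to 3.68 with OSU-CG5, a difference of 0.19 (SE 0.11). Vehicle replicate 2 was the lowest array in 4 of the 6, against 20.9% of all probe sets. Without it the 6 differences were 0.19 to 0.65, and the adjusted p of 1460247_a_at was 0.0801. Without vehicle replicate 3, probe sets 1418969_at and 1437033_a_at had limma adjusted p of 0.0403 and 0.0335. Without vehicle replicate 1 both had 0.294, and with an OSU-CG5 array left out they had 0.32 to 0.457. No source sequence was given for 1460247_a_at, 1418969_at and 1449293_a_at, so whether they share one with another probe set is not known.

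Ctnnb1 read higher with OSU-CG5 in 3 of 3 probe sets, by 1.16-fold to 1.40-fold. Of these, 1420811_a_at and 1450008_a_at share their source sequence. The brightest, 1420811_a_at, read 12.33, 12.52 and 12.34 in vehicle and 12.46, 12.70 and 12.69 with OSU-CG5. The groups overlapped there, since OSU-CG5 replicate 1 lay below vehicle replicate 2, and the difference was 0.22 (SE 0.13; limma adjusted p = 0.409). This probe set lay at the 99.5 percentile of mean signal. Probe set 1450008_a_at read 8.50, 8.85 and 8.85 in vehicle and 9.14, 9.03 and 9.25 with OSU-CG5. Its groups stood apart, with a difference of 0.41 (SE 0.14; limma unadjusted p = 0.018, adjusted p = 0.228). Probe set 1430533_a_at read 7.07, 7.23 and 7.15 in vehicle and 7.61, 7.58 and 7.73 with OSU-CG5. That was the clearest separation for this gene, a difference of 0.49 (SE 0.11; limma unadjusted p = 0.00239, adjusted p = 0.155). Without vehicle replicate 2 the 3 differences were 0.28, 0.47 and 0.53.

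Pparg was measured by 1 probe set of low signal, 1420715_a_at, at the 42.6 percentile of mean signal. It read 5.15, 5.33 and 5.01 in vehicle and 4.71, 4.68 and 4.82 with OSU-CG5. All treated arrays lay below all vehicle arrays, by 0.43 on average (log2 difference -0.43, SE 0.13; 95% interval -0.71 to -0.14), or 1.34-fold lower. The limma unadjusted p was 0.00882 and the adjusted p 0.193, and without vehicle replicate 2 the difference was -0.34 (SE 0.13). In bulk tissue fewer cells of a type and less RNA per cell cannot be told apart. Of all genes, 65.7% were below 0 and 8.43% read lower at an unadjusted limma p under 0.05. Macrophage markers (6 of 6 measured, all below 0, 3 at that p) averaged 7.01 to 7.57 in vehicle and 6.61 to 6.90 with OSU-CG5. Vehicle replicate 2 had the highest macrophage average, and the median difference was -0.46, or -0.28 without that array. Endothelial markers (7 of 7, all below 0, 5 at that p) averaged 5.49 to 5.74 and 5.20 to 5.35. Their median difference was -0.36, or -0.26 without vehicle replicate 2. Skeletal muscle markers (7 of 7 below 0, 5 at that p) averaged 5.72 to 6.40 in vehicle and 4.85 to 5.57 with OSU-CG5. Their median difference was -0.62, and -0.43 without vehicle replicate 2. Smooth muscle markers (6 of 7 below 0, 4 at that p) averaged 9.16 to 9.41 and 8.90 to 9.17, with medians of -0.30 and -0.27. Fibroblast and matrix markers (6 of 7 below 0, 2 at that p) averaged 9.28 to 9.40 and 8.81 to 9.44, with medians of -0.26 and -0.27. Adipocyte markers (6 measured of 8 listed, 5 below 0, 1 at that p) averaged 4.80 to 4.95 in vehicle and 4.56 to 5.16 with OSU-CG5. Their median difference was -0.08, or -0.07 without vehicle replicate 2, and over all genes the median was -0.09. Luminal and basal epithelial markers had medians of -0.10 each, or -0.01 and -0.08 without that array. The adipokine Adipoq lay near the bottom of the scale on 5 arrays, at 2.98 to 3.63, and at 5.17 in OSU-CG5 replicate 1, whose Pparg signal was between those of the other treated arrays. The part of these cell types in the Pparg difference was not tested.

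Klf6 read lower with OSU-CG5 in 5 of 5 probe sets. Its groups stood apart in 4 of them, against 11.9% of all probe sets standing apart as lower. The brightest, 1433508_at, read 7.55, 7.37 and 7.61 in vehicle and 7.27, 7.04 and 7.21 with OSU-CG5. Vehicle replicate 2 was the vehicle array nearest to the treated ones, and the difference was -0.34 (SE 0.13; limma unadjusted p = 0.0265, adjusted p = 0.252), or -0.41 without it. Probe set 1447448_s_at read 6.35, 6.33 and 6.15 in vehicle and 6.14, 5.49 and 5.73 with OSU-CG5. The treated arrays were more spread there, with replicate 1 just under the lowest vehicle array, and the difference was -0.49 (SE 0.17; adjusted p = 0.239). Probe set 1459718_x_at, which shares its source sequence with 1447448_s_at, lay at 3.30 to 3.32 in vehicle and 2.75 to 3.00 with OSU-CG5, a difference of -0.40 (SE 0.12; adjusted p = 0.193) at the bottom of the scale. Probe sets 1427742_a_at and 1418280_at differed by -0.16 (SE 0.11) and -0.06 (SE 0.14). Without vehicle replicate 2 the 4 probe sets after the brightest differed by -0.47, -0.40, -0.10 and -0.05, in the order given. Klf6 is made in most cell types, and the macrophage, endothelial, muscle and fibroblast marker values given for Pparg stand beside its difference as well. Their part was not tested.

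**Figure D2:**
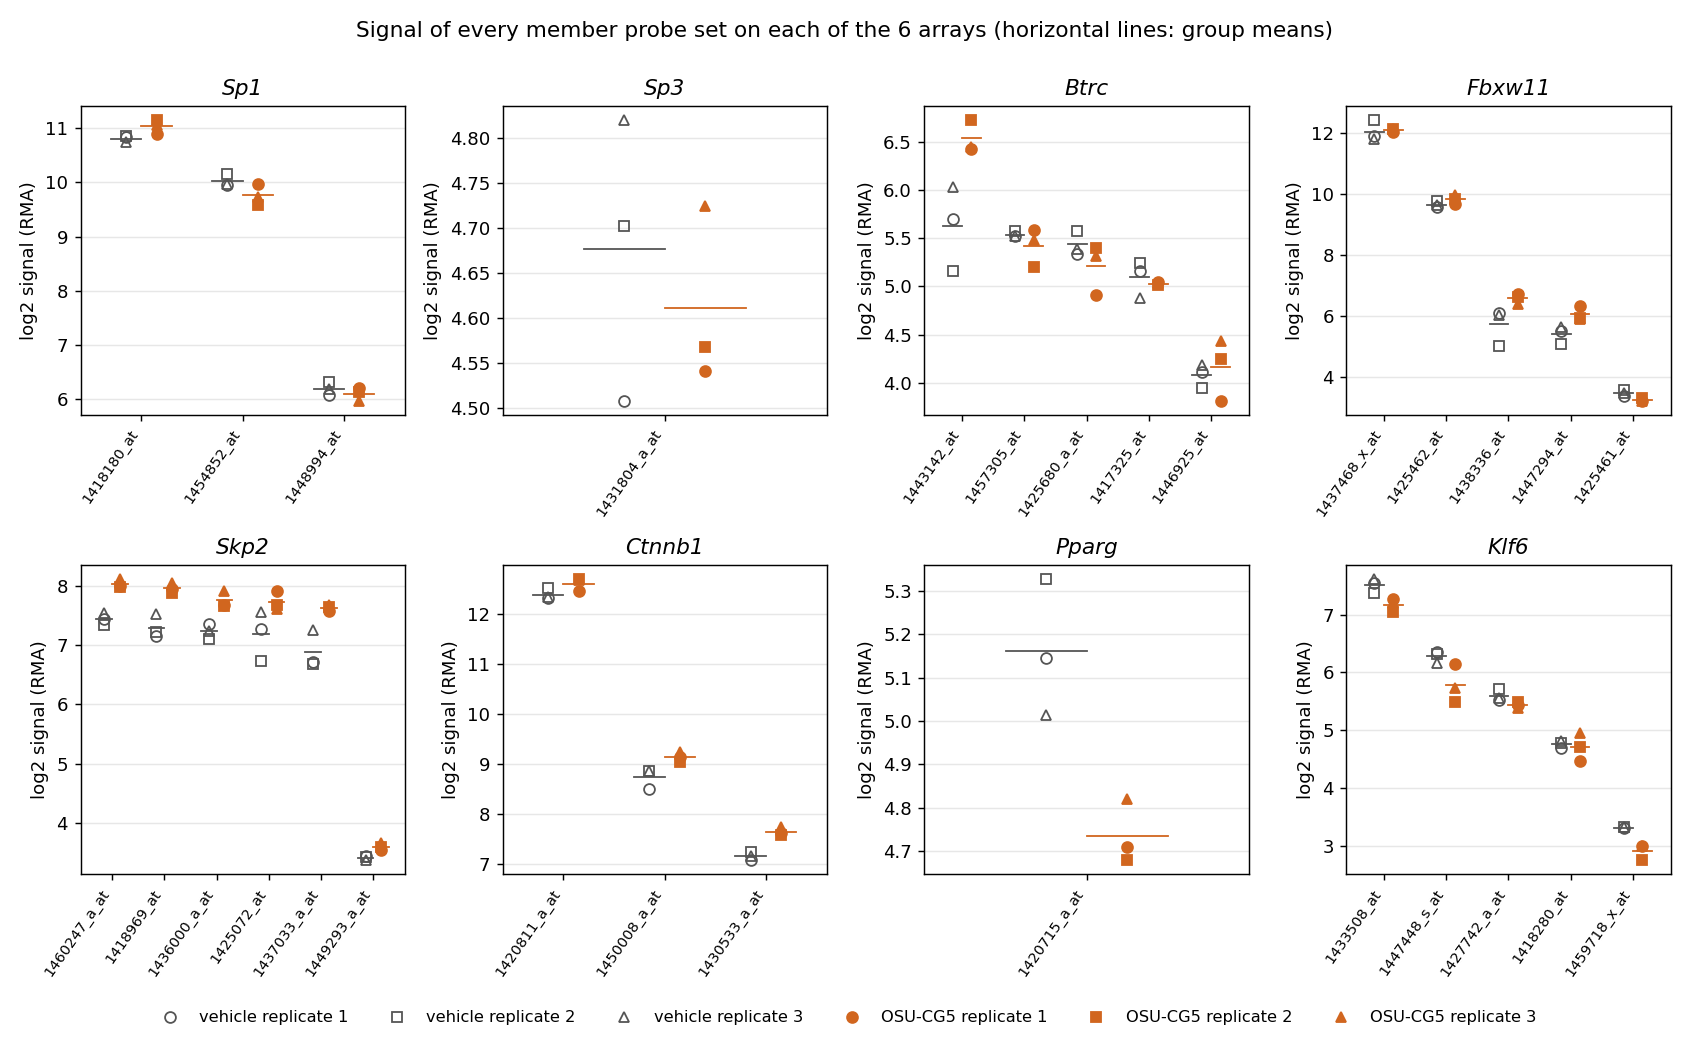
Log2 signal (y axis) of the 29 probe sets (x axis, by falling mean) in 8 panels, 1 per gene, with open grey symbols for vehicle, filled orange symbols for OSU-CG5, a symbol shape per replicate number and lines at group means. In 5 of the 6 Skp2 probe sets the treated arrays sit between 7.57 and 8.11 above vehicle arrays at 6.68 to 7.56, while in Btrc only 1443142_at separates the groups.

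Probe sets of a gene were set beside its brightest by the root mean square difference of their 6 signals, each less its own mean, which is 0 for equal profiles. The smallest values were 0.08 for Klf6 1459718_x_at and 0.08 for Skp2 1436000_a_at, and the largest was 0.69 for Fbxw11 1438336_at. For Btrc the 4 comparisons gave 0.49 to 0.66, the brightest probe set being the one whose groups stood apart. Of the 21 probe sets set beside a brightest one, 15 had a difference in the same direction. All 5 for Skp2, both for Ctnnb1 and all 4 for Klf6 were among them, and 0 of the 2 for Sp1 and 1 of the 4 for Btrc. The same measure over 9621 genes with a mean signal of at least 6 named the genes nearest to each member, which follows from these 6 arrays only. Nearest to Skp2 were Atxn7 (0.03), the kinetochore gene Ndc80 (0.07) and Hars2 (0.07), against a median of 0.37 over all compared genes. The 3 nearest to Btrc were Zswim8, Ankrd16 and Atat1, at 0.07 to 0.09 against a median of 0.59. Pparg lay nearest to Elmo1, Hps1 and Gm5617 (0.04 to 0.05, median 0.27), and Klf6 to Vps51, Lamtor4 and Zbed3 (0.03 to 0.06, median 0.27). These genes were picked as the nearest of 9621, so their place under the median follows from the selection.

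**Figure D3:**
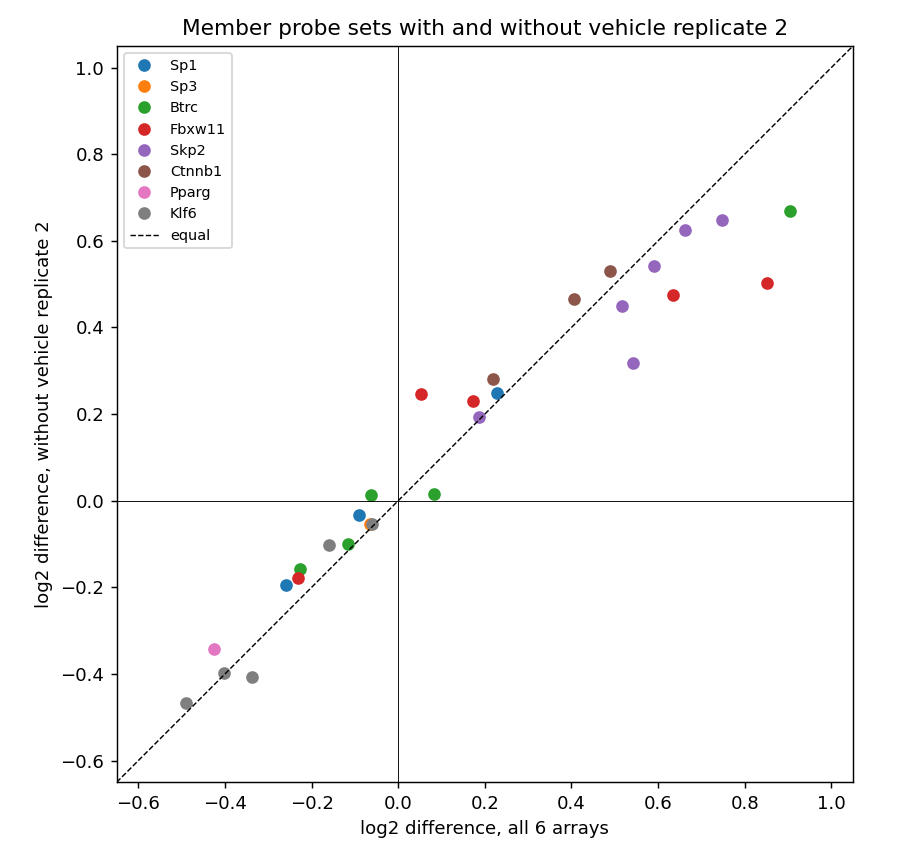
Log2 difference of each member probe set with all 6 arrays (x axis) and without vehicle replicate 2 (y axis), coloured by gene, with a dashed line of equality. Skp2, Klf6, Ctnnb1 and Pparg keep their side of 0, Btrc 1443142_at moves from 0.91 to 0.67 and Fbxw11 1438336_at from 0.85 to 0.50.

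Counts among related genes were near the background. Over 9 lists of related genes, each gene represented by its brightest probe set, 149 genes were measured besides the members. None passed the adjusted threshold in limma (0%, as for the 18193 genes of the array), with 0.142 as the lowest adjusted p. By the unadjusted threshold of 0.05, 9 genes read higher and 8 lower, together 11.4%, against 13.8% of all genes (5.4% higher and 8.43% lower). The median difference was -0.03, and over all genes it was -0.09.

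Among the other Sp and Klf factors, 0 of 20 had an unadjusted limma p under 0.05, with 0.338 as the lowest adjusted p. The bone factor Sp7 differed by -0.27, Sp6 by -0.30, the endothelial factor Klf2 by -0.27 and Klf9 by 0.26 (SE 0.13 to 0.15 each). The Klf2 difference was -0.14 without vehicle replicate 2, and 4 of the 7 Klf9 probe sets were above 0. Directions in the family were mixed, with 9 above 0, 11 below and a median of -0.03. Of 17 genes known to be regulated by Sp1, 1 was higher and 3 lower at an unadjusted p under 0.05. The background over all genes was 5.4% higher and 8.43% lower, and the list median was 0.02. The thymidylate synthase gene Tyms read 4.74 to 5.73 in vehicle and 5.87 to 6.38 with OSU-CG5 (difference 0.91, SE 0.26; limma adjusted p = 0.184), but only this 1 of its 4 probe sets had that direction. Without vehicle replicate 2, its lowest array, the Tyms difference was 0.70. Without vehicle replicate 3, the vehicle array nearest to the treated ones, it was 1.20 (limma adjusted p = 0.0357). With any other array left out Tyms did not pass the adjusted threshold. The monoamine oxidase Maob, the VEGF receptor Kdr and the matrix protein Thbs1 differed by -0.56, -0.28 and -0.57. Without vehicle replicate 2 these differences were -0.48, -0.24 and -0.41. Thbs1 lay near the bottom of the scale (mean 3.76), and Kdr also counts among the endothelial markers given for Pparg.

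For the ubiquitin ligases, 14 genes of the SCF core and its activation by Nedd8 were measured. At an unadjusted limma p under 0.05, 1 was higher and 1 lower, against 5.4% and 8.43% of all genes. The list median was 0.02. Dcun1d1, which promotes cullin neddylation, differed by 0.78 (SE 0.27), and by 0.44 without vehicle replicate 2. Its signal on that array was 7.22 against 8.15 to 8.78 on the others, and 3 of its 5 probe sets were above 0. The ubiquitin-conjugating enzyme Cdc34 differed by -0.39 (SE 0.15), or -0.24 without that array. Cks1b, the cofactor of Skp2, read 10.50, 10.93 and 11.42 in vehicle and 10.53, 10.69 and 10.44 with OSU-CG5, so it overlapped and did not share the direction of Skp2. Of 18 other F-box genes, 2 were higher (Fbxl12 by 0.40 and Fbxo11 by 0.47) and 0 lower, with a median of -0.10. The Fbxo11 difference was 0.26 without vehicle replicate 2.

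Of 21 genes whose proteins beta-TrCP degrades, 3 were higher and 0 lower at an unadjusted limma p under 0.05. The shares of all genes were 5.4% higher and 8.43% lower, and the list median was 0.03. The mitotic activator Bora read 6.65, 5.96 and 6.68 in vehicle and 7.53, 7.52 and 7.31 with OSU-CG5. Its treated arrays all lay above vehicle, by 1.02 (SE 0.20; adjusted p = 0.142), and by 0.79 without vehicle replicate 2, the lowest array (adjusted p = 0.0364). Without vehicle replicate 3 the Bora difference was 1.14 (adjusted p = 0.0466). With vehicle replicate 1 or an OSU-CG5 array left out, Bora did not pass the adjusted threshold. The repressor Rest differed by 0.34 (SE 0.12), with 3 of its 4 probe sets above 0. The mTOR inhibitor Deptor differed by 0.27 (SE 0.11), with 4 of its 6 probe sets above 0, and by 0.23 without vehicle replicate 2. Of 12 substrates and partners of Skp2, 0 had an unadjusted p under 0.05, with 6 above 0 and 6 below, and cyclin E1 (Ccne1) differed by -0.23 (SE 0.12). Cdkn1b, which encodes p27 and was picked out after its values were seen, differed by 0.13 (SE 0.14; adjusted p = 0.65), and by 0.033 without vehicle replicate 2.

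Of 21 genes of the beta-catenin destruction complex and its transcription partners, 1 was higher and 3 lower at an unadjusted limma p under 0.05. Among all genes 5.4% were higher and 8.43% lower, and the list median was -0.05. The kinase Gsk3a read 8.91, 9.20 and 9.16 in vehicle and 8.60, 8.80 and 8.79 with OSU-CG5 (difference -0.36, SE 0.13; adjusted p = 0.243). Ctnnbip1, which blocks beta-catenin from TCF, differed by -0.34 (SE 0.12), the kinase Csnk1e by -0.44 (SE 0.19) and the coactivator Bcl9 by 0.72 (SE 0.29). The groups stood apart for Gsk3a, Ctnnbip1 and Csnk1e and overlapped for Bcl9. Without vehicle replicate 2 the differences were -0.30 for Gsk3a, -0.29 for Ctnnbip1, -0.30 for Csnk1e and 0.42 for Bcl9. Only this 1 of the 2 Bcl9 probe sets had that direction.

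At an unadjusted limma p under 0.05, 5.4% of all genes were higher and 8.43% lower. Among 14 PPAR and RXR receptors and cofactors, 1 was higher and 0 lower at that threshold, with a median of 0.05. That gene was the coactivator Ppargc1a, which read 6.52, 6.52 and 6.92 in vehicle and 6.86, 7.12 and 7.26 with OSU-CG5 (difference 0.43, SE 0.16; adjusted p = 0.257), with vehicle replicate 3 above OSU-CG5 replicate 1. Of 16 target genes of PPAR gamma, 13 were below 0 and 3 above, with a median of -0.12, where 65.7% of all genes were below 0. Mean signals in this list reached down to 2.89, and genes near the bottom of the scale count among those below 0. At the unadjusted threshold 1 was lower and 0 higher. This was the lipid droplet gene Plin4, which read 7.30, 7.15 and 7.29 in vehicle and 7.03, 6.94 and 6.87 with OSU-CG5 (difference -0.30, SE 0.11; adjusted p = 0.257). Its treated arrays all lay below vehicle, as did those of Plin2 (difference -0.27, SE 0.12).

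**Figure D4:**
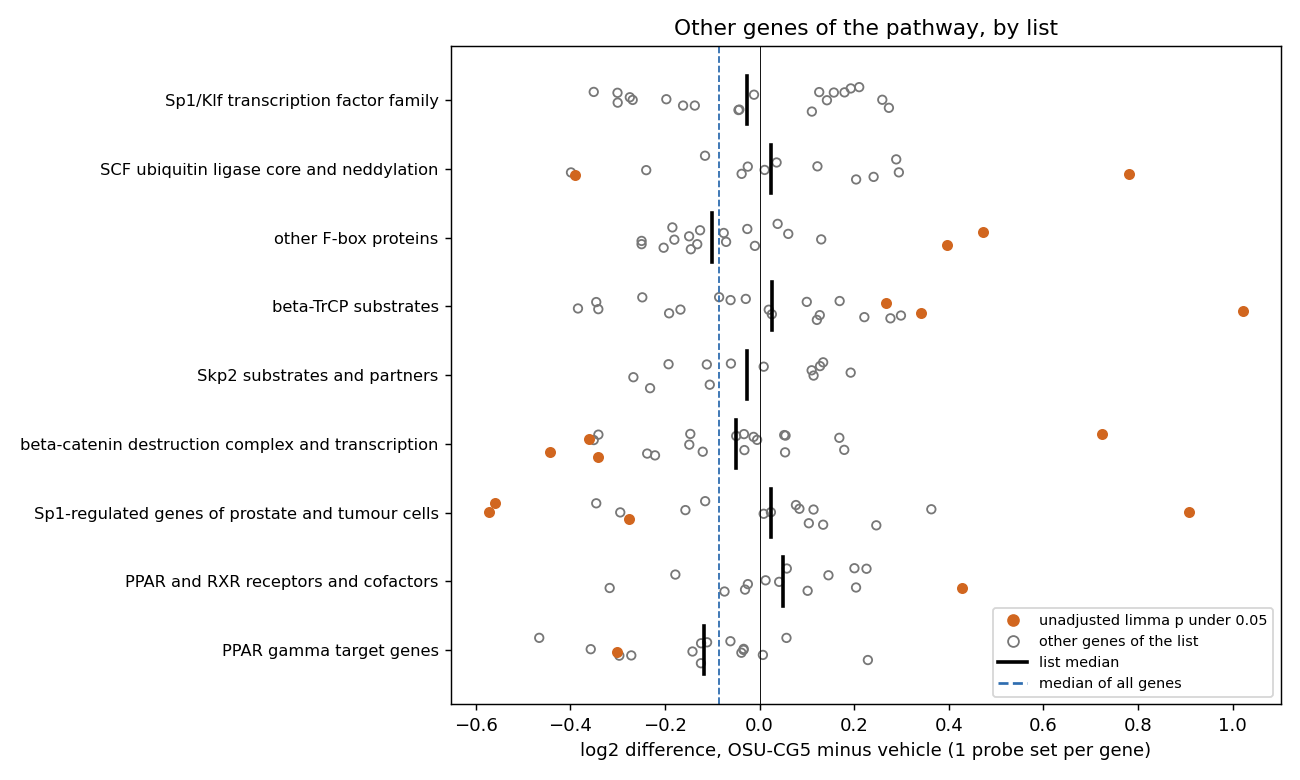
Log2 difference, OSU-CG5 minus vehicle (x axis), of each measured gene in the 9 lists (rows), 1 probe set per gene, with filled points at an unadjusted limma p under 0.05, black bars at list medians and a dashed line at the median of all genes, -0.09. List medians lie between -0.12 and 0.05, and single genes such as Bora (1.02) and Tyms (0.91) lie far to the right.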

How the data were processed

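RNA of the dorsal and lateral prostate lobes was measured in 3 vehicle and 3 OSU-CG5 mice, and each deposited value is a probe set's log2 signal, made with RMA per the submitters' processing notes. Which program ran RMA is not given in the sources. Per the labels' protocols, biotinylated cRNA was made from 2 ug of Trizol-extracted total RNA. RMA gives arrays a shared distribution, so a broad shift in 1 direction is partly removed. Groups follow the tissue source label. In the free-text description 2 treated arrays carry another number after the compound's prefix, which was not followed. Replicate numbers are in accession order and pair no animals.

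Of 45101 probe sets, 64 Affymetrix controls were left out. Symbols come from the platform's annotation: 34945 probe sets had 1 symbol, 932 several and 9160 none. Differences were tested with limma 3.58.1 (R 4.3.3, lmFit and eBayes, no filter), adjusting p-values by Benjamini-Hochberg across 45037 probe sets (threshold 0.05). The procedure was tested on simulated data with independent noise of equal spread on every array, so without an array that stands apart. An unadjusted p under 0.05 served for descriptive counts. Promoter sequences are RefSeq's. The 8 members and all gene lists were chosen with earlier results of these data known, and no list was tested as a set. The text names every member probe set, up to 4 genes of smallest p per list, and up to 3 genes of most similar profile for some members. Alternatives were a minimum mean of log2 6, median centring, repeated quantile normalization, an intensity trend with a robust prior, array weights, a single probe set for each gene and omission of each array. The number of arrays limits the precision.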

Additional observations from a re-analysis of the deposited data

How the results depend on the processing

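Of 29 member probe sets, 24 kept their direction under every alternative run. With array quality weights the difference of Sp3 was 0.0044 in place of -0.07 and that of Klf6 1418280_at 0.031 in place of -0.06. Leaving out single arrays gave -0.15 to 0.0060 for Sp3, -0.18 to 0.062 for Klf6 1418280_at, -0.066 to 0.25 for Fbxw11 1437468_x_at, -0.17 to 0.013 for Btrc 1417325_at and -0.051 to 0.26 for Btrc 1446925_at. The differences of these 5 with all arrays lay between -0.07 and 0.08.

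Members with a limma adjusted p under 0.05 numbered 0 with all arrays, 5 with array weights and 0 to 3 with an array left out. Related genes numbered 0, 1 with array weights (Bora) and 0 to 2 with an array left out, and over all probe sets the counts were 0, 822 with weights and 0 to 885. At an unadjusted limma p under 0.05, 14 of the 29 member probe sets passed, against 16.4% of all probe sets. With 1 probe set per gene 4 of 8 genes passed, where 13.8% of all genes did in the main fit. With an array left out 10 to 14 member probe sets passed, and the share over all probe sets in those runs is not given here. Of the related genes 17 passed, 11 with a minimum mean of log2 6, where fewer genes are tested, and 8 to 19 with an array left out. The cause of the other shifts was not tested. No paired analysis was possible because the labels give no number shared between groups.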
